A study of Microtus ochrogaster with 40 samples.

Results

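Glutamate and GABA are the main excitatory and inhibitory transmitters of the brain. The subunits of their receptors were followed here across nuclei from nucleus accumbens punches of the prairie vole (Microtus ochrogaster). This rodent is known for its lasting pair bonds. The genes were chosen by name alone, as every gene called Gria, Grin, Grik, Grid or Grm with a digit, or Gabra, Gabrb, Gabrg, Gabrd, Gabre, Gabrq, Gabrr or Gabbr. The rule found 44 of the 19130 genes in the tables, of which 43 encode receptor subunits. The remaining gene, Grid2ip, encodes a scaffold protein. Gabre and Gabrg1 were not analysed here.

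Single-nucleus RNA sequencing was done on accumbens punches of 40 voles, with 1 library from each animal. Each vole was a mate, paired for 16 days with an animal of the other sex, or a peer, paired as long with one of its own sex, which gave 11 female mates, 8 female peers, 11 male mates and 10 male peers. The labels used here name no drug, genotype or age, and all groups had a partner. They do not say which animals lived together, so partners may not be independent.

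Glutamate opens several kinds of ion channel. AMPA receptors, built from the Gria subunits, carry most fast excitation, and the edited Gria2 subunit keeps calcium out of them. NMDA receptors need Grin1 together with Grin2 or Grin3 subunits, and the Grin2 subunit sets how long the channel stays open. Kainate receptors are built from Grik subunits, while the delta receptor Grid1 is known as a synaptic organiser. The metabotropic receptors (Grm) signal through G proteins, group I through calcium release and groups II and III by lowering cAMP. GABA-A receptors are chloride channels made of alpha, beta and usually gamma subunits, with delta or theta in some of them, and GABA-B receptors are pairs of Gabbr1 and Gabbr2. The main neurons of the accumbens are medium spiny neurons, its output cells, which fall into D1 and D2 types by their dopamine receptor and a further, eccentric type.

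A total of 178387 nuclei were kept, 1767 to 7666 per library, with a median of 658 to 2189.5 UMIs (distinct RNA molecules) per nucleus. Clusters were built without the 44 genes and named from marker lists, and the suffix -like marks a class that earned such a name. Neurons whose cluster earned no name are called by their leading genes: the Kcnc2-Sst, Vip-Crabp1, Dlk1-Pdyn and Gpr101-Gpr165 clusters. The Kcnc2-Sst cluster scored highest for parvalbumin interneuron markers and nearly as high for somatostatin ones, with both Sst and Pvalb among its leading genes. The Vip-Crabp1 cluster also scored highest for parvalbumin interneuron markers but was led by a gene of another list. Libraries differed in makeup. Glutamate neuron-like nuclei were 0.485% of male peer 5 and 43.7% of male mate 2, which was also the shallowest library and held 0.189% astrocyte-like nuclei. Over all libraries glutamate neuron-like nuclei made up 18.1% of the nuclei kept. Whether they came from the accumbens itself or from tissue beside it in the punches was not tested. In female peer 1, 20.6% of nuclei stayed unnamed. Of the distinct barcodes, 18419 of 158474 occurred in more than 1 library, and the pair of libraries with the largest overlap shared 78 barcodes, 1.47% of the smaller one.

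A level is the summed count of a class in an animal, scaled to a common total of UMIs of that class (CPM, counts-per-million), given as the mean ± SD over animals with at least 20 nuclei of the class. Gene lengths were not used, so levels are not compared between genes. The share of a subunit in the UMIs of its family also depends on gene length and is compared only between classes. Levels by class are a description with no test. Of the 44 genes, 39 reached 10 CPM in a class, and 34 of these were highest in a class of neurons. The 5 others were Grin3b, an NMDA subunit, and Gabra6, Gabrr1, Gabrr2 and Gabrr3. The highest class mean of Grin3b was 8.07 CPM in ependymal-like nuclei, a class that was mixed, as described below for Grin2c. Gabra6, a cerebellar alpha subunit, gave 5 UMIs in all nuclei together. Of the rho subunits, known from the retina, Gabrr1 gave 215 UMIs, Gabrr2 gave 12 and Gabrr3 gave 4.

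**Figure D1:**
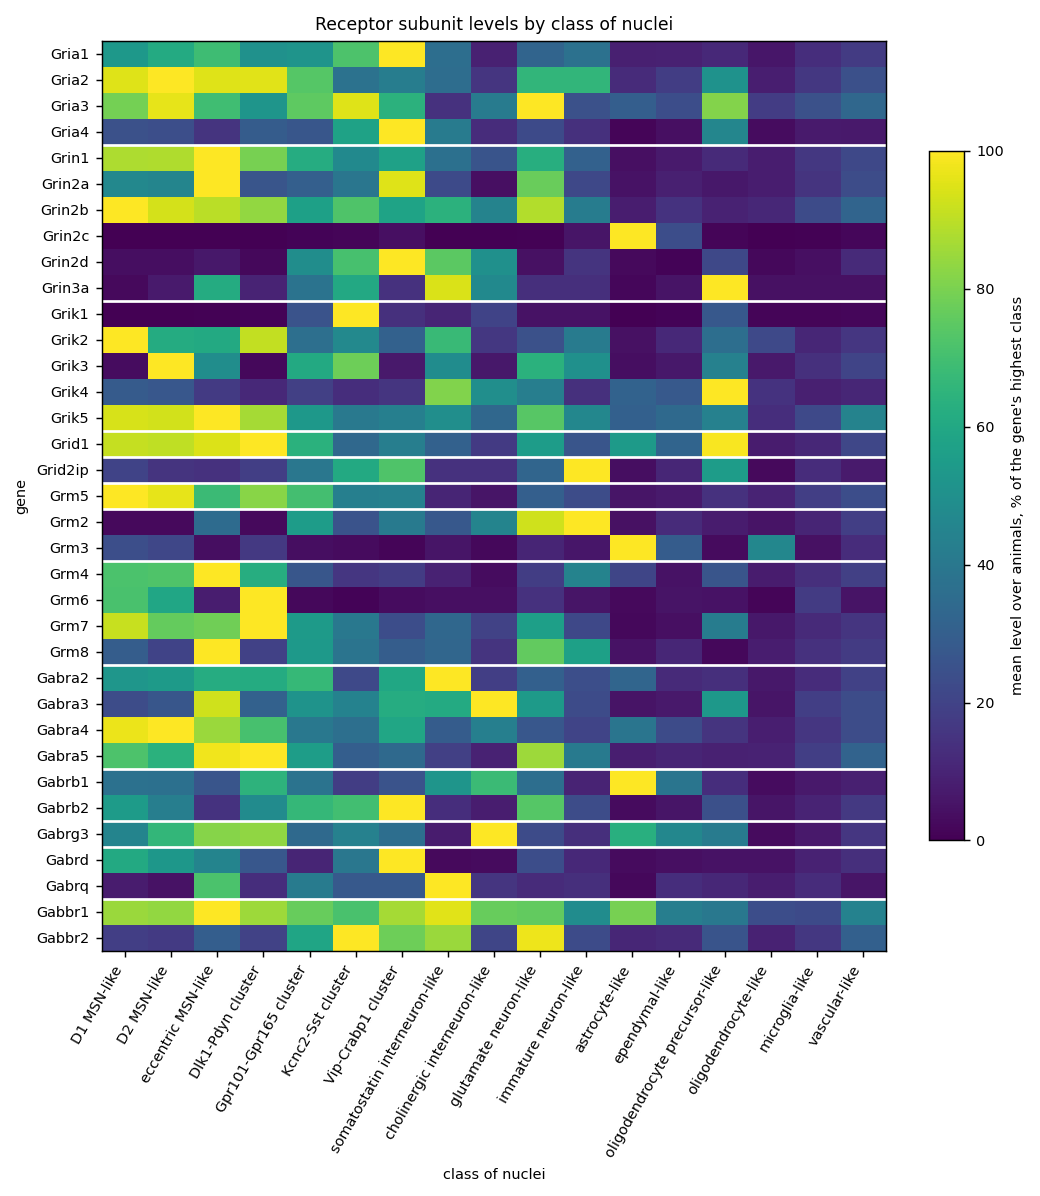
Mean level of 35 of the 39 described genes (rows, by family, separated by white lines) in 17 classes of nuclei (columns), as a percentage of the gene's own highest class. Most rows are brightest among the neuron classes on the left, while Grin2c, Grm3 and Gabrb1 are brightest in astrocyte-like nuclei and Grin3a and Grik4 in oligodendrocyte precursor-like nuclei.

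Among the AMPA subunits, Gria2 was high in spiny neurons and low in interneuron-like nuclei and in the Kcnc2-Sst and Vip-Crabp1 clusters. It was at 3252 ± 239.7 CPM (n = 40) in D2 medium spiny neuron-like nuclei, at 3095 ± 246 CPM in D1-like and at 3099 ± 256 CPM in eccentric-like nuclei. In the Kcnc2-Sst and Vip-Crabp1 clusters it was at 1226 and 1372 CPM, in somatostatin interneuron-like nuclei at 1161 CPM (n = 31) and in cholinergic interneuron-like nuclei at 500.5 CPM (n = 25). Its share of all Gria UMIs was 75.4% ± 1.97 in D1-like nuclei and 47.3% in the Kcnc2-Sst cluster. Gria1 and Gria4 were both highest in the Vip-Crabp1 cluster, above the Kcnc2-Sst cluster in 38 of 40 animals for each. Gria1 was at 671 ± 161 CPM there against 357 CPM in D1-like nuclei, and Gria4 at 368 ± 90.8 against 91.2 CPM. The lowest animal for Gria4 in the Vip-Crabp1 cluster, at 198 CPM, was above the highest in D1-like nuclei, at 147 CPM. Gria3, an X-linked gene, was highest in glutamate neuron-like nuclei (706 ± 106 CPM) and lowest in somatostatin interneuron-like nuclei (99.6 ± 88.9 CPM), where it made up 5.79% of Gria UMIs against 26.0% in the Kcnc2-Sst cluster.

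Grin1, the obligatory NMDA subunit, was highest in eccentric-like nuclei at 2110 ± 203 CPM and lowest in astrocyte-like nuclei at 89.2 ± 35.4 CPM (n = 39). Grin2a was at 278 ± 54.0 CPM in eccentric-like nuclei, at 265 CPM in the Vip-Crabp1 cluster, at 129.6 CPM in D1-like and at 11.0 CPM in cholinergic-like nuclei. The first of these classes were level, with eccentric-like nuclei above the Vip-Crabp1 cluster in 20 of 40 animals. Grin2b, the subunit of slower receptors, ran from 271 ± 60.5 CPM in D1-like nuclei to 121 CPM in cholinergic-like nuclei among the neurons other than immature ones. Of the Grin2 UMIs, Grin2a made up 32.1% in D1-like, 52.8% in eccentric-like, 46.3% in glutamate neuron-like and 6.48% in cholinergic-like nuclei.

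Grin2c was highest in astrocyte-like nuclei. Over 39 animals it ran there from 459 CPM through a median of 739.6 CPM to 990.3 CPM, while its mean was 1.92 CPM in D1-like and 0.709 CPM in eccentric-like nuclei. No animal of the eccentric-like class exceeded 9.24 CPM, so the classes did not overlap. Ependymal-like nuclei came next at 175 ± 98.0 CPM, below astrocyte-like nuclei in 32 of 32 animals, but that class was mixed. At a finer clustering 88.5% of its nuclei fell in a cluster led by Fzd5 and Gfap, which scored highest for astrocyte markers and was left unnamed, and 180 nuclei in one that kept the ependymal name. Grin2c was at 242 CPM in the Fzd5-Gfap cluster (400 UMIs, all animals pooled) and at 19.6 CPM in the other (9 UMIs). Grin2c gave 95.3% of the Grin2 UMIs of astrocyte-like nuclei. Grin2d, a subunit of very slow receptors, was at 2.44 CPM in D1-like nuclei and highest in the Vip-Crabp1 cluster (63.8 ± 21.8 CPM).

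Grin3a, whose subunit lowers calcium entry through NMDA receptors, was high in classes of different kinds. Its highest level was 471 ± 99.6 CPM in oligodendrocyte precursor-like nuclei, with 445 ± 115 CPM in somatostatin interneuron-like, 290.5 ± 50.2 CPM in eccentric-like and 285 CPM in Kcnc2-Sst nuclei. D1-like nuclei were at 11.7 CPM and D2-like at 34.4 CPM. The lowest animal in eccentric-like nuclei, at 210.4 CPM, was above the highest in D1-like nuclei, at 33.0 CPM. The plot of levels in each animal shows these separations.

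**Figure D2:**
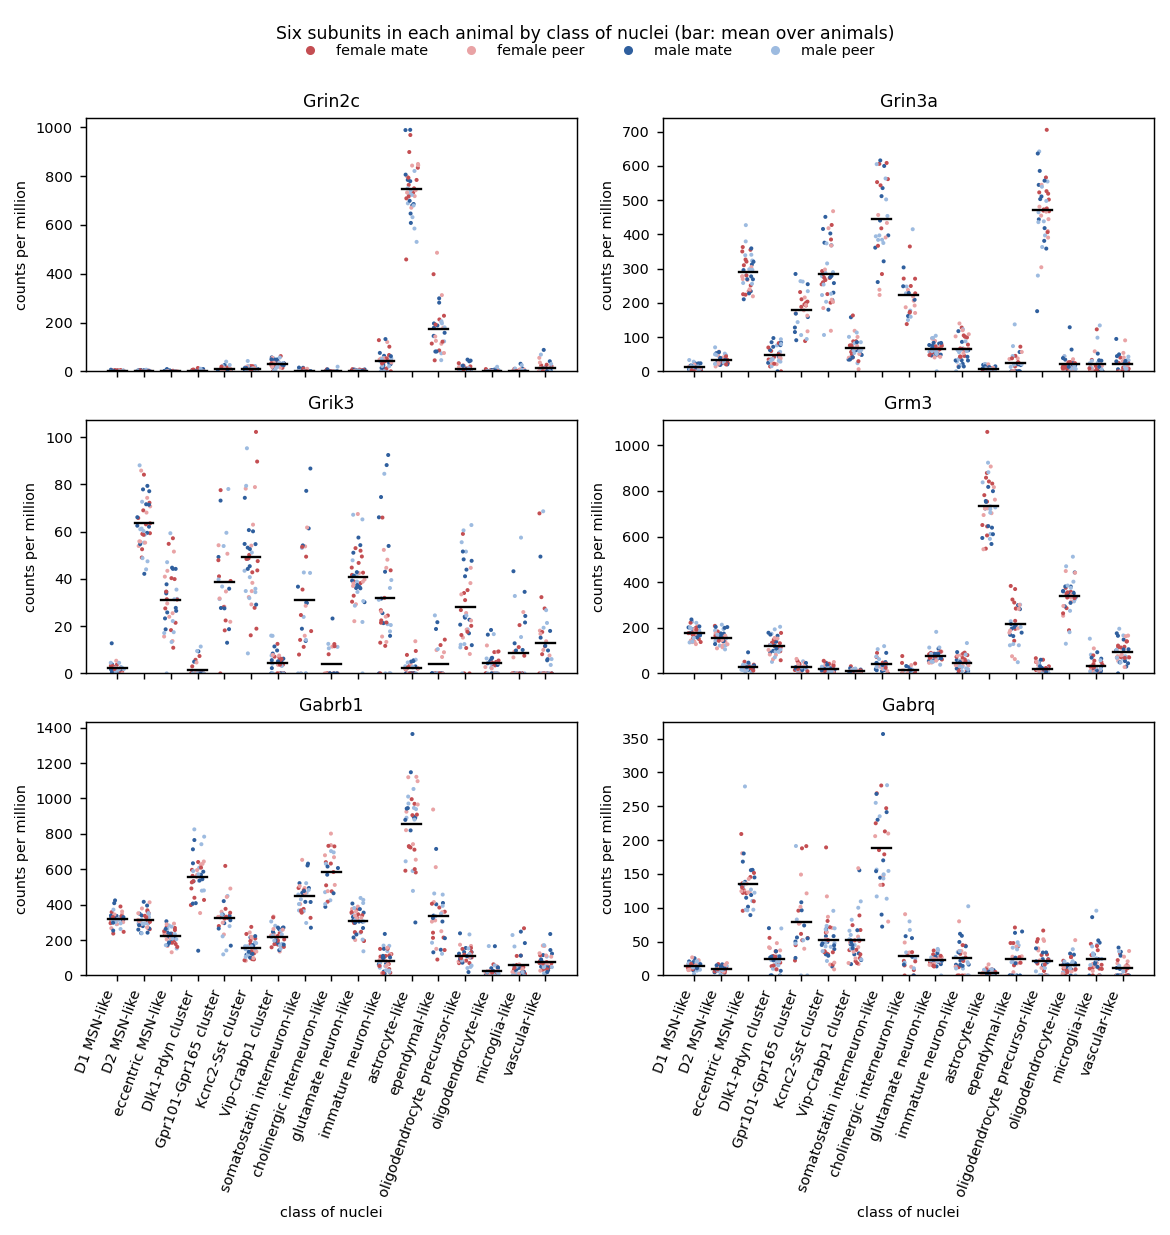
Levels of Grin2c, Grin3a, Grik3, Grm3, Gabrb1 and Gabrq in CPM (vertical axes) in each animal (points, coloured by group) for 17 classes of nuclei, with black bars at the mean over animals. Grin2c is highest in astrocyte-like nuclei, Grik3 is near 0 in D1-like and at 42.1 to 88.0 CPM in D2-like nuclei, and the point at 299.5 CPM in astrocyte-like nuclei of the Gabrb1 panel is male mate 6.

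Among the kainate subunits, Grik1 was at 178 ± 54.3 CPM in the Kcnc2-Sst cluster, at 48.7 CPM in oligodendrocyte precursor-like nuclei and at 0.390 CPM in D1-like nuclei, whose highest animal had 1.64 CPM. Grik3 ran from 42.1 CPM through a median of 61.7 CPM to 88.0 CPM in D2-like nuclei and had a mean of 2.18 CPM in D1-like nuclei. It was lower in D1-like nuclei in 40 of 40 animals, and it was low as well in the Dlk1-Pdyn (1.47 CPM) and Vip-Crabp1 (4.24 CPM) clusters. Grik2 was highest in D1-like nuclei at 284 ± 38.9 CPM against 175 CPM in D2-like nuclei, with 40 of 40 animals in that order. Grik4 and Grik5 encode subunits that work only with Grik1, Grik2 or Grik3. Grik4 was at 50.3 ± 24.7 CPM in oligodendrocyte precursor-like and 40.8 CPM in somatostatin interneuron-like nuclei, which differed by less than their SD, while Grik5 was highest in eccentric-like nuclei at 221 ± 29.8 CPM. In the Kcnc2-Sst cluster Grik1 made up 38.4% of Grik UMIs, and Grik3 made up 13.9% in D2-like against 0.413% in D1-like nuclei.

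**Figure D3:**
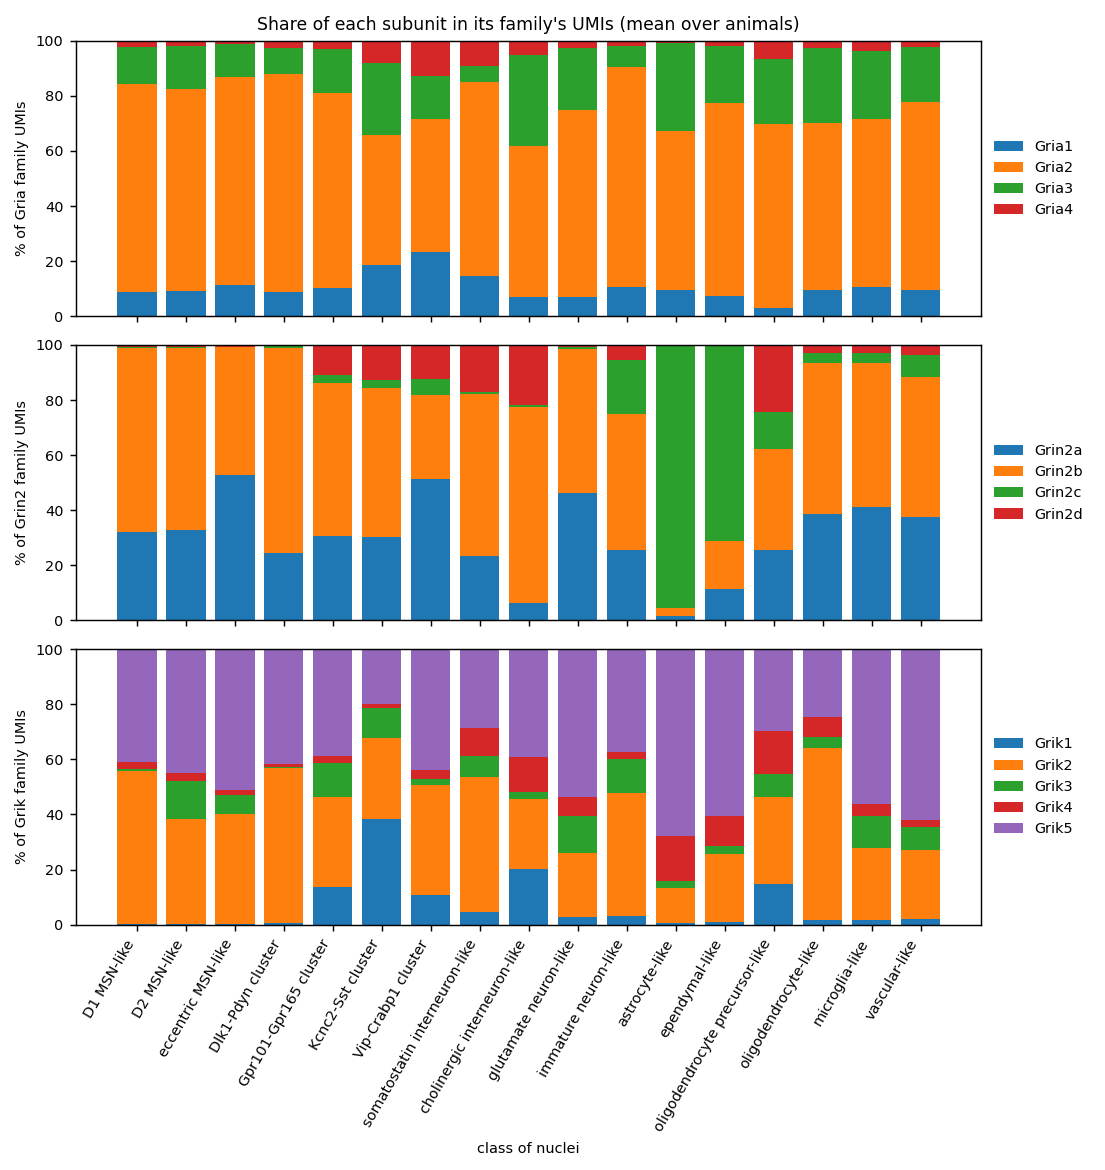
Share of each subunit in the UMIs of its family (stacked bars, mean over animals, vertical axes in percent) for the Gria, Grin2 and Grik genes in 17 classes of nuclei. Gria2 is most of the bar in D1-like nuclei (75.4%) and less in the Kcnc2-Sst cluster (47.3%), where Grik1 is 38.4% of its bar, and in astrocyte-like nuclei Grin2c (95.3%) fills nearly the whole bar.

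The delta receptor Grid1 was level between the Dlk1-Pdyn cluster (187 ± 41.5 CPM, n = 38) and oligodendrocyte precursor-like nuclei (186 ± 39.8 CPM), a difference inside the SD. Mature oligodendrocyte-like nuclei had 14.5 CPM. Grid2ip was highest in immature neuron-like nuclei at 46.9 ± 26.3 CPM and was at 9.37 CPM in D1-like nuclei. The highest animal in immature neuron-like nuclei, at 113 CPM, had 4 UMIs. That class joined 2 clusters, one of 3392 nuclei led by Igfbpl1 and one of 772 nuclei led by Mki67 and Bub1.

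Of the group I metabotropic receptors, Grm5 was at 437 ± 84.3 CPM in D1-like, 421 CPM in D2-like and 25.1 CPM in cholinergic-like nuclei. In group II, Grm3 ran in astrocyte-like nuclei from 544 through a median of 726 to 1059 CPM. Mature oligodendrocyte-like nuclei followed at 339 ± 73.7 CPM, below astrocyte-like nuclei in 39 of 39 animals. Their precursors had 20.9 CPM, lower than the mature class in 40 of 40 animals. In neurons Grm3 was at 177 CPM in D1-like but 28.0 CPM in eccentric-like nuclei. Grm2, its mainly neuronal relative, was at 50.0 ± 13.9 CPM in glutamate neuron-like and 53.8 ± 42.2 CPM in immature neuron-like nuclei. D1-like nuclei had 1.41 CPM. The highest animal for Grm2 in immature neuron-like nuclei, at 159 CPM, had 10 UMIs.

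In group III, Grm4 was highest in eccentric-like nuclei, from 45.1 CPM through a median of 99.9 CPM to 161 CPM, above D2-like nuclei (73.2 CPM) in 38 of 40 animals. Grm7, a presynaptic receptor of low glutamate affinity, was at 289 ± 52.1 CPM in the Dlk1-Pdyn cluster and 264 CPM in D1-like nuclei. Grm8, another presynaptic receptor, was highest in eccentric-like nuclei at 42.2 ± 17.1 CPM, a level that came mainly from 1 of their 2 clusters (160.2 CPM in the Col14a1-Shisa8 and 16.4 CPM in the Foxp2-Mdfic cluster, against 12.5 CPM in D1-like nuclei). Grm6, known from bipolar cells of the retina, was low everywhere but uneven, with 11.1 ± 7.49 CPM in the Dlk1-Pdyn cluster, 7.94 CPM in D1-like, 6.60 CPM in D2-like and 0.876 CPM in eccentric-like nuclei.

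Of the GABA-A alpha subunits, Gabra2, found in synaptic receptors, was highest in somatostatin interneuron-like nuclei at 448 ± 76.0 CPM and made up 50.2% of their Gabra UMIs against 6.17% in the Kcnc2-Sst cluster. Gabra3, X-linked in other mammals, was at 147 ± 51.0 CPM in cholinergic-like and 136 ± 26.6 CPM in eccentric-like nuclei, against 33.8 CPM in D1-like nuclei. Gabra4, an alpha subunit of extrasynaptic receptors, was at 802 ± 65.8 CPM in D2-like and 780.1 ± 73.6 CPM in D1-like nuclei against 219 CPM in glutamate neuron-like nuclei. It made up 49.9% of Gabra UMIs in D1-like, 47.3% in eccentric-like and 17.2% in glutamate neuron-like nuclei. Gabra5, known for tonic inhibition, was at 261 CPM in the Dlk1-Pdyn cluster, 256 ± 38.7 CPM in eccentric-like, 223 CPM in glutamate neuron-like and 24.8 CPM in cholinergic-like nuclei.

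The beta subunits form part of the GABA site of the receptor. Gabrb1 was highest in astrocyte-like nuclei, from 299.5 CPM through a median of 891 CPM to 1364 CPM, and gave 92.2% of their Gabrb UMIs against 21.7% in D1-like nuclei. Cholinergic-like nuclei followed at 583 ± 121 CPM, lower in 20 of 24 animals. Gabrb2 was at 627 ± 127 CPM in the Vip-Crabp1 cluster, 462 CPM in glutamate neuron-like and 343 CPM in D1-like nuclei, but at 91.2 ± 23.1 CPM in eccentric-like and 50.4 CPM in cholinergic-like nuclei.

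Gabrg3, a gamma subunit, was highest in cholinergic-like nuclei at 124 ± 46.1 CPM, against 55.8 CPM in D1-like and 9.61 CPM in somatostatin interneuron-like nuclei. Gabrd, a subunit of extrasynaptic receptors, was highest in the Vip-Crabp1 cluster at 581 ± 117 CPM, above D1-like nuclei (352 ± 53.9 CPM) in 40 of 40 animals. It was lowest in somatostatin interneuron-like nuclei at 14.2 CPM. Gabrq, the theta subunit, was at 188 ± 67.9 CPM in somatostatin interneuron-like and 135 ± 34.2 CPM in eccentric-like nuclei, against 14.2 CPM in D1-like and 9.31 CPM in D2-like nuclei.

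Of the GABA-B subunits, Gabbr1 varied little between classes and Gabbr2 more. Gabbr1, which binds GABA, had a highest class mean 4.42 times the lowest, the smallest ratio of the 39 described genes, from 570.1 ± 79.2 CPM in eccentric-like to 129 CPM in microglia-like nuclei. Gabbr2, which couples to the G protein, was at 259 ± 59.3 CPM in the Kcnc2-Sst cluster and 252 ± 53.7 CPM in glutamate neuron-like nuclei but at 47.6 CPM in D1-like and 44.3 CPM in D2-like nuclei. Its share of Gabbr UMIs was 39.0% in the Kcnc2-Sst cluster and 8.90% in D1-like nuclei.

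D1-like and D2-like nuclei differed in few subunits. Folds were taken within animals on log2(CPM + 5), over genes of at least 10 CPM in 1 of the classes, and a gene was counted when its mean fold passed 2. Of 33 members counted, 2 passed, Grik3 and Grin3a, both lower in D1-like nuclei, where 0.989% of all genes passed, 0.41% higher and 0.579% lower. Grik3 was 9.72-fold and Grin3a 2.45-fold lower on that scale. The added 5 CPM shrinks the folds of low genes: with 1 CPM added in its place Grik3 was 23.6-fold lower. Such values are given below where they differ by more than 1.5 times. Smaller differences ran the same way in 40 of 40 animals: Grik2, Grm7 and Gabrb2 were higher in D1-like nuclei by 0.69, 0.26 and 0.35 on the log2 scale, and Gria3 was 0.28 and Gabrg3 0.52 lower on that scale. The median log2 difference was 0.04 over members and 0.01 over all genes.

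The Grin3a difference rested on 1 of the 3 D2-like clusters. That cluster, led by Cpne7 and DRD2, held 8022 nuclei with 125 ± 47.2 CPM of Grin3a, from 55.2 to 220.0 CPM over the animals. The other D2-like clusters, led by Nts and Penk and by Adora2a and Npffr2, had 13.6 and 6.54 CPM, as little as the D1-like clusters at 14.5 and 7.52 CPM. Without the Cpne7-DRD2 cluster 1 of 33 members passed 2-fold between D1-like and D2-like nuclei, against 0.845% of all genes. That member was Grik3, which was at 50.5, 74.2 and 76.7 CPM in the D2-like clusters and at 2.59 and 1.36 CPM in the D1-like ones. Of the smaller differences, those of Grik2 (0.61 on the log2 scale, 40 of 40 animals), Gria3 (-0.23, 40 of 40) and Gabrg3 (-0.30, 38 of 40) kept their direction without that cluster, while Grm7 (0.04, higher in 27 of 40) and Gabrb2 (0.10, higher in 35 of 40) were close to level.

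The Cpne7-DRD2 cluster had a DRD2 level like that of the other D2-like clusters (367 CPM against 347 and 363 CPM). It had less of the D2 marker Penk (1263 CPM against 7813 and 5578 CPM) and more of the D1 marker Tac1 (1051 CPM against 69.2 and 51.2 CPM). The D1 marker DRD1A was low, as in the other D2-like clusters (22.4 CPM against 28.8 and 24.4 CPM). The D1 marker Pdyn was low too (21.2 CPM against 18.0 and 10.5 CPM). The D2 marker Adora2a stayed high, at 781 CPM against 924 and 1016 CPM. Of 32 members counted, 6 passed 2-fold against the other D2-like clusters, where 3.66% of all genes did. Grin3a was higher, and Grm3, Grm7 and Gabrb2 were among those that were lower. Gabrb2 ran from 8.04 to 189 CPM in that cluster, all below the lowest animal of the other D2-like clusters, at 218 CPM. Grm7 was at 87.2 ± 35.9 CPM against 238 and 285 CPM, and Grm3 at 54.3 ± 27.0 CPM against 169 and 208 CPM, each lower in 40 of 40 animals.

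**Figure D4:**
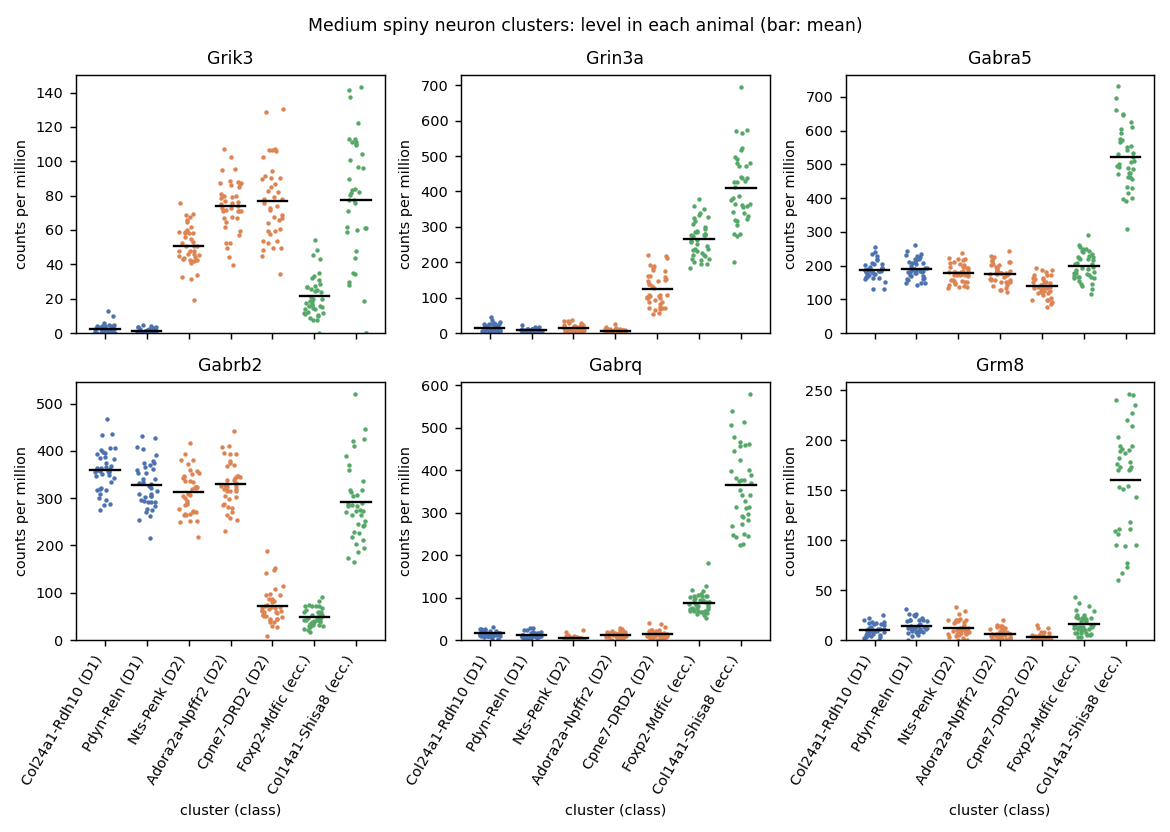
Levels of Grik3, Grin3a, Gabra5, Gabrb2, Gabrq and Grm8 in CPM (vertical axes) in each animal (points) for the D1-like (blue), D2-like (orange) and eccentric-like (green) clusters, named by their leading genes, with bars at the mean. Grik3 is present in all 3 D2-like clusters, while Grin3a is high and Gabrb2 low in the Cpne7-DRD2 cluster compared with the other D2-like clusters, and Gabra5, Gabrq and Grm8 are highest in the Col14a1-Shisa8 cluster.

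Eccentric-like nuclei differed more from D1-like nuclei. Of 34 members counted, 11 passed 2-fold, 7 higher and 4 lower, where 5.39% of all genes passed, 2.93% higher and 2.46% lower. Grin3a was 19.1-fold, Gabrq 7.46-fold, Grik3 4.78-fold, Gabra3 3.62-fold, Grm2 3.52-fold, Grm8 2.68-fold and Grin2a 2.11-fold higher. With 1 CPM added Grik3 was 10.4-fold and Grm2 8.20-fold higher. Among the lower members, Grm3 was 5.84-fold and Gabrb2 3.70-fold lower. Each of the 11 differences held in at least 39 of 40 animals when both eccentric-like clusters were summed.

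The 2 eccentric-like clusters were themselves unlike. The larger, led by Foxp2 and Mdfic, held 11128 nuclei, and the smaller, led by Col14a1 and Shisa8, held 3843 nuclei and could be compared in 38 animals. Of 33 members counted, 8 passed 2-fold, where 7.39% of all genes did. Gabrq ran from 224 to 579 CPM in the Col14a1-Shisa8 cluster and from 51.4 to 182 CPM in the Foxp2-Mdfic cluster, with no overlap. Grm8 was at 160.2 CPM against 16.6 CPM, Gabrb2 at 291 against 49.2 CPM and Gabra5 at 522 against 199 CPM, each higher in 38 of 38 animals. Grik3 was higher as well, at 77.7 against 20.6 CPM. Gria3 and Gabrg3 were lower, at 209.6 against 555 CPM and at 49.3 against 112 CPM. Set against D1-like nuclei on their own, 10 of 34 members passed 2-fold in the Foxp2-Mdfic cluster, where 4.91% of all genes did, and 13 of 34 in the Col14a1-Shisa8 cluster, where 11.9% did. The higher Grm8 level did not hold in the Foxp2-Mdfic cluster (log2 difference 0.24, higher in 23 of 40 animals). The lower Gabrb2 level shrank to -0.27 on the log2 scale in the Col14a1-Shisa8 cluster (lower in 31 of 38), and Grin2a was 0.83 higher there on that scale (38 of 38), short of 2-fold. Grin3a, Gabrq, Grik3, Gabra3, Grm2 and Grm3 passed 2-fold in each cluster.

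Against D1-like and D2-like nuclei pooled, 13 of 35 members passed 2-fold, 6 higher and 7 lower, in glutamate neuron-like nuclei, where 14% of all genes did, 8.46% higher and 5.54% lower. Grm2 was 8.23-fold (20.8-fold with 1 CPM added) and Gabbr2 5.08-fold higher, and Gabra4 3.67-fold, Grm4 3.42-fold, Grm5 3.16-fold and Grik2 3.15-fold lower. In somatostatin interneuron-like nuclei 26 of 36 members passed, 17 of them lower, where 21% of all genes did, 7.74% higher and 13.3% lower. Gabrd was 24.2-fold (47.8-fold with 1 CPM added) and Grm5 11.3-fold lower there, and Grin3a 16.0-fold and Gabrq 11.5-fold higher. In immature neuron-like nuclei 25 of 36 members passed, 21 of them lower, where 26.1% of all genes did, 12.2% higher and 13.9% lower. A gene that was counted only through the class where it is high had to differ, so these counts are descriptions.

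Levels in glia were set beside those of 8 neuron genes, since free RNA can reach all droplets. Its part in any level was not tested. The levels of the 8 genes in astrocyte-like nuclei were 9.68% to 20.1% of their pooled level in neurons. Of 37 members compared, 13 lay above that range, 10 within it and 14 below, down to Grm7 at 2.91%. Beside Grin2c, Grm3 and Gabrb1, those above were Gabrg3 (136% of the neuron level), Grik4 (108%), Gabbr1 (93.3%), Grid1 (72.2%), Gabra2 (68.1%), Gabra4 (53.6%), Grm4 (38.1%), Grik5 (36.3%), Gria3 (33.6%) and Gabbr2 (21.2%). The AMPA subunits Gria1 and Gria2, at 16.0% and 14.5%, lay within the range. In astrocyte-like against D1-like and D2-like nuclei 27 of 34 members passed 2-fold, where 36.1% of all genes did (16.8% higher, 19.3% lower), and the 3 that were higher were Grin2c, Grm3 and Gabrb1.

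In oligodendrocyte precursor-like nuclei the range of the neuron genes was wide, 15.0% to 177%, with Elavl4 at the top. Above it lay Grin3a (583%), Grik1 (426%), Grik4 (333%), Grid2ip (228%) and Grin2d (192%). Against mature oligodendrocyte-like nuclei, 22 of 34 members passed 2-fold, where 28.5% of all genes did, 19.6% higher and 8.94% lower. Of these 21 were higher in precursors, among them Grin3a (22.7-fold), Grid1 (13.5-fold), Gria4 (13.0-fold), Gria2 (7.68-fold) and Grm7 (7.41-fold), and Grm3 was 16.9-fold lower. With 1 CPM added these were 23.1-fold for Grid1, 23.1-fold for Gria4, 12.2-fold for Grm7 and 25.4-fold for Grm3. In mature oligodendrocyte-like nuclei Grm3 (309% of the neuron level), Grik4 (45.8%), Gabrq (43.1%), Grik2 (35.3%) and Gabbr1 (26.5%) lay above the range of 5.78% to 23.2%. In microglia-like nuclei 33 of 36 members lay within the range and in vascular-like nuclei 30 of 37.

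Some GABA-A genes lie side by side in mammalian genomes, and their levels were compared over the means of 11 neuron classes, as a description. In one such cluster Gabra5 and Gabrg3 had Pearson's r = 0.17. Between Gabra2, Gabra4 and Gabrb1, of another cluster, r was 0.34 to 0.39. Among all members, Grin1 was most like Grid1 (r = 0.97), Gria2 most like Gabra5 (r = 0.94) and Grin3a most like Gabrq (r = 0.84). Class means share libraries and depth.

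Between animals, members varied about as much as other genes over all nuclei. The median SD of log2 CPM was 0.27 for members and 0.28 for all 13721 genes tested, and the median biological coefficient of variation was 0.179 and 0.180. It was lowest for Gria3 (0.0997) and highest for Grm2 (0.312). In mature oligodendrocyte-like nuclei the median was 0.571 for members and 0.199 for all genes. Male mate 2 stood out there, with a Gria2 level of 1636 CPM against a median of 189 CPM. That class joined 2 clusters. The smaller, of 288 nuclei, scored 2.09 for oligodendrocyte markers against 7.26 in the larger. It drew 45.1% of its nuclei from 1 library, and its part in the male mate 2 level was not tested. Without male mate 2 the median coefficient for members was 0.471. By this coefficient members also varied more than other genes in microglia-like (0.822 against 0.247 for all genes, 10 members), immature neuron-like (0.344 against 0.190), ependymal-like (0.331 against 0.218), vascular-like (0.317 against 0.213) and astrocyte-like nuclei (0.227 against 0.164). The same held to a smaller degree in the Gpr101-Gpr165 (0.231 against 0.183), Vip-Crabp1 (0.188 against 0.158) and Kcnc2-Sst (0.193 against 0.167) clusters. In the 6 other classes tested the widest gap was in glutamate neuron-like nuclei (0.185 against 0.178). The SD of log2 CPM went the other way in neurons, where in each of the 8 classes tested other than the immature one it was lower for members than for all genes, as in D1-like nuclei (0.24 against 0.29), the Dlk1-Pdyn cluster (0.34 against 0.43) and the Gpr101-Gpr165 cluster (0.42 against 0.44). In the non-neuronal and immature neuron-like classes named above it was higher for members, as in microglia-like (1.07 against 0.52) and astrocyte-like nuclei (0.46 against 0.37). Of the 39 described genes, 12 were highest over all nuclei in male peer 5 and 8 were lowest in male peer 8. Whether the makeup of those libraries plays a part in these values was not tested.

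Pairing was tested over all nuclei with edgeR's quasi-likelihood test, with Benjamini-Hochberg adjustment over all genes. Of 40 members tested, 0 were called, where 0% of all genes were called, and DESeq2 also called 0 members. At an unadjusted p under 0.05 there were 2 members, Grm7 and Grm4, both higher in mates, where 7.47% of all genes passed, 3.74% higher and 3.73% lower. Without male mate 2, female peer 1 or male peer 1 in turn there was 1, where 5.30%, 5.99% and 7.84% of all genes passed. Grm7 ran from 124 through a median of 192 to 228 CPM in mates and from 127 through 162 to 247 CPM in peers. Its log2 difference was 0.16 (SE 0.07, adjusted p 0.669, edgeR), with 17 of 22 mates above the peer mean and overlapping groups. Grm4 ran from 30.2 through 51.8 to 74.3 CPM in mates and from 24.9 through 42.0 to 73.9 CPM in peers, a log2 difference of 0.25 (SE 0.11, adjusted p 0.669, edgeR). D1-like and D2-like nuclei were 17.8% and 18.5% of nuclei in mates and 15.9% and 16.1% in peers. In sums over all nuclei, fewer nuclei of a class and less RNA per nucleus cannot be told apart. Grm6, Grin2a and Grik4 had the next lowest p, with log2 differences of 0.31, 0.15 and 0.20 and adjusted p from 0.673 to 0.686 in edgeR. As a direction without a test, 28 of 40 members were higher in mates. Their median log2 difference was 0.04 against -0.0051 over all genes, of which 51.9% were lower.

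Within 15 classes, 356 pairs of a member and a class were tested for pairing and 0 were called, where 0% of all such pairs over all genes were. At an unadjusted p under 0.05 there were 20 pairs, 14 higher and 6 lower in mates, or 5.62%, against 5.06% of all pairs (2.61% higher, 2.44% lower). The lowest p belonged to Gabra5 in the Dlk1-Pdyn cluster, at 246 ± 36.8 CPM (n = 22) in mates and 283 ± 43.6 CPM (n = 16) in peers, a log2 difference of -0.23 (SE 0.09, edgeR adjusted p 1.000). Grin2a in eccentric-like nuclei ran from 237 through 288 to 369.6 CPM in mates and from 168 through 252 to 377 CPM in peers (log2 difference 0.21, edgeR adjusted p 0.971). Grm6 in D1-like nuclei was at 9.17 ± 3.03 CPM (n = 22) in mates and 6.44 ± 3.66 CPM (n = 18) in peers (log2 difference 0.46, edgeR adjusted p 0.909). The groups overlapped for each of these 3 genes. By direction, 208 of the 356 pairs were higher in mates. Their median log2 difference was 0.03 against 8.8e-05 over all pairs, of which 50.0% were lower.

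For sex, 0 members were called over all nuclei, where 3 genes (0.0219%) were, and DESeq2 also called 0 members. At an unadjusted p under 0.05 there were 5 members, all lower in females, 12.5% of 40 against 8.26% of all genes (3.45% higher, 4.81% lower). Gria3 had the lowest p. It ran from 484 through 521 to 607 CPM in females and from 500.3 through 591 to 676 CPM in males, with 16 of 19 females below the male mean. The log2 difference was -0.14 (SE 0.04), with an edgeR adjusted p of 0.489 that lay between 0.364 and 0.840 over the alternatives. Of the other X-linked members, Gabra3 differed by -0.12 (SE 0.08, adjusted p 0.670, edgeR) and Gabrq by -0.09 (SE 0.11, adjusted p 0.815, edgeR). RefSeq's annotation of the vole places Gria3 on X and leaves Gabra3 and Gabrq without a chromosome, so their X linkage is taken from other mammals. Grin3a, Grik4, Grin2a and Gria2 followed Gria3, with log2 differences of -0.17, -0.26, -0.19 and -0.10 and edgeR adjusted p from 0.584 to 0.600. For Gria2 17 of 19 females lay below the male mean, at 2317 ± 195 CPM against 2476 ± 232 CPM, with overlapping groups.

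**Figure D5:**
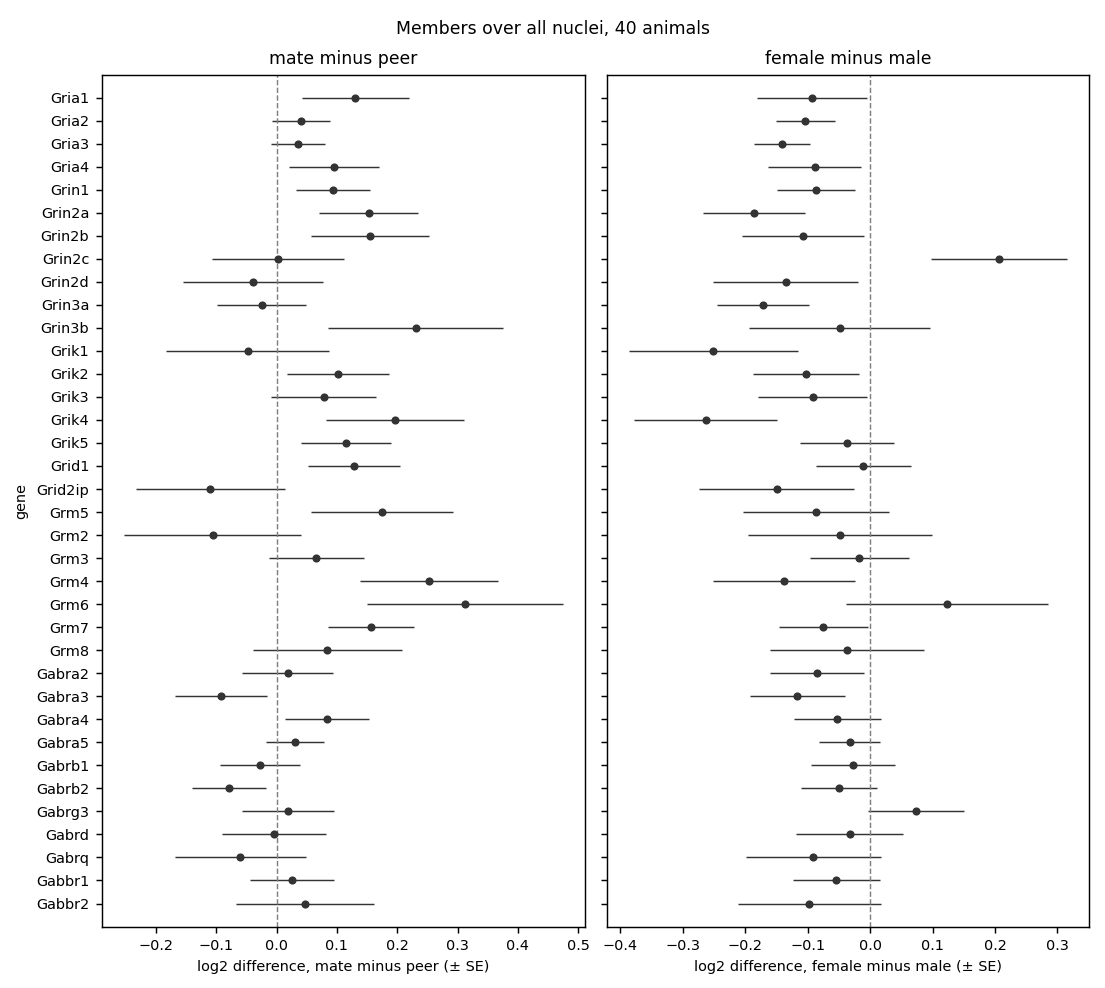
Log2 differences with standard errors (horizontal axes) for 36 of the 40 members tested over all nuclei of 40 animals, mate minus peer on the left and female minus male on the right. No difference was called after adjustment, and 10 of the 36 points on the left and 33 of the 36 on the right lie below 0.

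As a direction without a test, 36 of 40 members were lower in females, with a median log2 difference of -0.09 against -0.00079 over all genes, of which 50.3% were lower. All neuron classes together made up 70.1% ± 6.36 (n = 19) of nuclei in females and 74.1% ± 6.70 (n = 21) in males, and its part in this direction was not tested. Grin2c, Grm6 and Gabrg3 were among the 4 that were higher in females. Within classes 236 of 356 pairs were lower in females, with a median of -0.05 against -0.0027 over all pairs, of which 50.9% were lower, and 0 were called, where 0.026% of such pairs over all genes were. At an unadjusted p under 0.05 there were 23 pairs, 3 higher and 20 lower in females, or 6.46%, against 5.22% of all pairs (2.48% higher, 2.74% lower). Gabrg3 in astrocyte-like nuclei had the lowest p, at 87.1 ± 18.6 CPM (n = 19) in females and 69.7 ± 16.3 CPM (n = 20) in males (edgeR adjusted p 0.785). Gabbr2 in eccentric-like nuclei was at 69.1 ± 16.0 against 83.8 ± 20.4 CPM (edgeR adjusted p 0.999), and Grin2a in D2-like nuclei at 116 ± 27.4 against 135 ± 29.7 CPM (edgeR adjusted p 0.737). The groups overlapped for each of these.

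Whether the pairing difference differed between the sexes was tested as an interaction. Over all nuclei 0 members were called, where 0% of genes were, and 0 had an unadjusted p under 0.05 in edgeR, against 1.95% of all genes (0.714% positive, 1.23% negative), and DESeq2 called 0 members. By direction alone, 28 of 40 differences, females minus males, were positive. Their median was 0.09 against -0.01 over all genes, of which 54.0% were negative. In the classes 210 of 356 were positive, with a median of 0.04 against 0.00091 over all pairs, of which 49.8% were negative. The lowest p were those of Grm6, Grik2, Grm4, Grm5 and Grin2c, with differences, females minus males, of 0.64, 0.32, 0.33, 0.34 and -0.31 on the log2 scale. Grm6 was at 4.86 ± 1.66 CPM (n = 11) in female mates and 3.17 ± 1.04 CPM (n = 8) in female peers, and at 3.62 ± 1.11 CPM (n = 11) in male mates and 3.58 ± 1.35 CPM (n = 10) in male peers. Within classes 0 of the 356 pairs were called, where 0% of all pairs were, and 11 had an unadjusted p under 0.05, 7 of them positive and 4 negative, 3.09% against 2.77% of all pairs (1.32% positive, 1.46% negative). Grin3a in eccentric-like nuclei had one of the lowest p (log2 difference of the pairing differences 0.37, SE 0.15, edgeR adjusted p 1.000). It was at 294 ± 53.7 CPM in female mates and 261 ± 28.0 CPM in female peers, and at 281 ± 45.6 CPM in male mates and 319.8 ± 54.1 CPM in male peers.

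The partners of these receptors were a list of 50 scaffolds, auxiliary subunits, transmitter transporters and synthesis enzymes, of which 49 were tested over all nuclei. Of these 0 were called by edgeR for pairing, sex or the interaction, and 3, 4 and 0 had an unadjusted p under 0.05, or 6.12%, 8.16% and 0% against 7.47%, 8.26% and 1.95% of all genes. Within classes 468 pairs were tested and 0 were called by edgeR for each contrast, with 26, 19 and 23 at an unadjusted p under 0.05, or 5.56%, 4.06% and 4.91% against 5.06%, 5.22% and 2.77% of all pairs. Of these 21 were higher and 5 lower in mates, 9 higher and 10 lower in females, and 13 positive and 10 negative for the interaction. Among the lowest p for pairing were those of Kctd16, an auxiliary GABA-B subunit, in the Kcnc2-Sst cluster (log2 difference 0.47, SE 0.15, edgeR adjusted p 0.588) and Cacng7, an AMPA receptor auxiliary subunit, in the Vip-Crabp1 cluster (0.56, SE 0.18, adjusted p 0.991). For sex they were Pick1, an AMPA receptor-binding protein, in immature neuron-like nuclei (0.57, SE 0.18, edgeR adjusted p 0.612), Gad1, a GABA synthesis enzyme, in oligodendrocyte precursor-like nuclei (-0.74, SE 0.24, adjusted p 1.000) and Grip2, an AMPA receptor scaffold, in the Kcnc2-Sst cluster (-0.36, SE 0.12, adjusted p 0.775). For the interaction they were Slc1a3, a glutamate transporter, in the Kcnc2-Sst cluster (-1.10, SE 0.38, edgeR adjusted p 1.000), Cacng7 in the Vip-Crabp1 cluster (1.00, SE 0.37, adjusted p 1.000) and Cacng5, a relative of Cacng7, in glutamate neuron-like nuclei (-1.17, SE 0.46, adjusted p 1.000).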

How the data were processed

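The authors deposited raw UMI counts per gene and nucleus for each of 40 libraries, made with Cell Ranger 3.1.0 per the submitters' processing notes. The genome build, the annotation and whether intronic reads were counted are not given in the sources used here, and the last can change the level of a gene in nuclei.

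Barcodes with under 500 UMIs (6375, all in male mate 2) or over 5% mitochondrial counts (2148) and 7608 simulated-doublet calls were removed from 194518. The 2000 variable genes used for Leiden clustering (leidenalg 0.10.2) held no member. Clusters were named from 17 marker lists. Counts were summed per animal and class. These sums were tested with edgeR 4.0.16 (quasi-likelihood, TMM, R 4.3.3), all 4 groups in each fit, with Benjamini-Hochberg adjustment over each table and calls at 0.05, and with DESeq2 1.42.0 and limma voom (limma 3.58.1) as alternatives. Counts were also simulated with 200 genes changed, 100 of them 1.5-fold and 100 of them 2-fold. Over all nuclei (13644 genes) edgeR recovered 84% of those changed 1.5-fold and 97.0% of those changed 2-fold. In D1-like nuclei (10689 genes) it recovered 79% and 99.0%. The adjusted cut-off is looser when many genes change, so recovery of a lone changed member is not known. There were 10 false calls over all nuclei and 4 in D1-like nuclei. Changes under 1.5-fold were not simulated. For pairing and sex the members' differences over all nuclei were smaller than that, at most 0.31 and 0.26 on the log2 scale. Recovery at the size of those differences is not known. The largest member difference for the interaction over all nuclei was 0.64. Within classes the largest were 0.96 for pairing, 0.78 for sex and 1.42 for the interaction.

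Named for each contrast were the 5 members with the lowest p over all nuclei, the 3 pairs with the lowest p within classes and the X-linked members for sex. Members were taken by the name rule alone, but that rule, the lists and the other rules were set with earlier results of these data known. Of the 44 names, 43 matched RefSeq symbols. A few members and partners, though counted, are not reported here by name.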

Additional observations from a re-analysis of the deposited data

Results flagged for a closer look

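In 118 sets of values of 4 to 10 animals of a group, 13 had a highest or lowest animal that lay far from the nearest of the others (Dixon's 95% criterion), where chance gives about 5%. The sets share animals and genes, so they are not independent and the 5% is only a rough guide. Over all nuclei both mate groups had 11 animals and fell outside this size. Only peers could therefore be flagged there. Male peer 5, the library with almost no glutamate neuron-like nuclei, gave 3 of them. It was highest among male peers for Gabrq over all nuclei, at 68.7 CPM against 35.7 CPM in the next animal, and for Gabra2 in somatostatin interneuron-like nuclei at 691 against 525 CPM. For Gria3 in glutamate neuron-like nuclei it was lowest, at 296 CPM against 679 CPM, from 13 UMIs.

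Among female peers, animal 5 was highest over all nuclei for Grm4 (59.9 against 42.4 CPM) and Grm5 (359 against 235 CPM). Female peer 6 was highest for Grik4 over all nuclei (18.4 against 12.6 CPM) and for Gria3 in glutamate neuron-like nuclei (897 against 705 CPM). Female peer 2 was highest for Gabrg3 in astrocyte-like nuclei (127 against 89.2 CPM, 45 UMIs) and lowest for Gabra3 over all nuclei (44.7 against 56.0 CPM). Female peer 3 was highest for Grm6 in D1-like nuclei at 18.7 against 7.02 CPM, from 17 UMIs.

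In male mates, animal 8 was lowest for Gabra2 in somatostatin interneuron-like nuclei (217 against 390.1 CPM, 12 UMIs) and animal 6 for Gabrb1 in astrocyte-like nuclei (299.5 against 819 CPM, 108 UMIs). In male peers, animal 7 was highest for Grm2 in immature neuron-like nuclei (132 against 55.5 CPM, 6 UMIs).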

How the results depend on the processing

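No alternative called a member for pairing, sex or the interaction, over all nuclei or within classes. The number of members at an unadjusted p under 0.05 over all nuclei ran from 1 to 5 for pairing, from 3 to 6 for sex and from 0 to 1 for the interaction, and within classes from 15 to 46, 21 to 45 and 8 to 29. All genes moved too, with 4.69% to 7.84%, 5.60% to 8.36% and 1.56% to 2.60% of genes at that p over all nuclei and 4.45% to 5.71%, 4.51% to 5.49% and 2.40% to 3.97% of pairs within classes: the 46, 45 and 29 are of 627 pairs with no filter on low counts (7.34%, 7.18% and 4.63%), where 5.21%, 5.34% and 3.97% of all pairs passed. The 5 for pairing over all nuclei came with blocks of label numbers (6.06% of all genes) and the 6 for sex without male peer 1 (6.65% of all genes). Members lower in females over all nuclei were 36 of 40 with DESeq2, 35 without male mate 2, 34 without female peer 1 and 33 with blocks of label numbers, and 40 of 44 with no filter on low counts. Those higher in mates were 28, 29, 27 and 32 of 40 in the same order, and 30 of 44 with no filter. Positive interaction differences were 28, 27, 28 and 22 of 40, and 31 of 44. Within classes they were 208 of 356 with DESeq2, 213 of 354 without male mate 2 and 212 of 360 without female peer 1. With blocks of label numbers they were 177 of 356, with a median of -0.0025, so the tilt within classes was lost there. In an alternative chosen after seeing the data, which left out the Cpne7-DRD2 cluster, 1 member passed 2-fold between D1-like and D2-like nuclei in place of 2. In others chosen in the same way, 10 members passed between eccentric-like and D1-like nuclei without the Col14a1-Shisa8 cluster and 13 without the Foxp2-Mdfic cluster, in place of 11. The cluster led by Cpne7 held 5433 nuclei at the finer clustering and 5561 with the members kept among the variable genes, in place of 8022. Both also held a cluster led by Krt15 and Prok2 that earned no class name, of 6510 and 8128 nuclei. It was shallow, with a median of 692.5 and 745 UMIs. Its bearing on the levels of single clusters was not tested. With the members kept among the variable genes 35 of 35 members compared had the same highest class, at the finer clustering 35 of 36, with doublets kept 34 of 35 (with Grin2c at 600.3 CPM and Grm3 at 610 CPM in astrocyte-like nuclei) and with nuclei of at least 1000 UMIs 37 of 39. The labels do not say which animals lived together. In an alternative chosen after seeing the data, the 20 pairs of consecutive label numbers were used as a replicate block in limma voom (correlation within pairs 0.180 over all nuclei). With this block 0 members were called for any contrast, and 2, 4 and 0 members over all nuclei and 21, 25 and 11 pairs of a member and a class had an unadjusted p under 0.05 for pairing, sex and the interaction. Without the block limma voom gave 0 calls, 2, 4 and 0 members and 26, 25 and 11 pairs. Of all genes over all nuclei, 4.69%, 6.08% and 1.56% passed for the 3 contrasts with the block and 7.24%, 6.75% and 1.87% without it, and of all pairs within classes 4.80%, 5.33% and 3.01% against 5.71%, 5.49% and 3.1%. The members were 5%, 10% and 0% of 40 in both, and 5.90%, 7.02% and 3.09% of 356 pairs with the block and 7.30%, 7.02% and 3.09% without it. With 1 CPM added in place of 5, counts of members past 2-fold were 2, 11, 13 and 26 as before for D1-like, eccentric-like, glutamate neuron-like and somatostatin-like nuclei, 28 in place of 27 for astrocyte-like, 23 in place of 22 for precursor-like and 27 in place of 25 for immature neuron-like nuclei. Gene counts per nucleus are low, so members with few UMIs, such as Grm6, carry wide counting error.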
